A study of Mus musculus with 6 samples.

Results

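The nuclear genes for respiratory complexes II to V were measured in lysozyme-expressing dendritic cells of the mouse Peyer's patch that carried the C5a receptor (C5aR+ LysoDCs). Members were all probes whose RefSeq accession named a gene with a symbol beginning Sdha, Sdhb, Sdhc, Sdhd, Uqcr, Cox4, Cox5, Cox6, Cox7, Cox8 or Atp5, together with Cyc1 and Cycs, without pseudogenes. This gave 52 genes, read by 68 probes, of 22911 named genes on the array: 4 subunits of complex II and 4 of its assembly factors, 9 genes of complex III, 1 of cytochrome c, 17 of complex IV and 17 of complex V. Cox5b had no probe under this rule and was not analysed here. Total RNA from 3 untreated samples (0 nM C5a) and 3 samples given 100 nM recombinant C5a for 3 h was hybridised to Agilent 1-colour arrays, 1 array per sample. Cells of both groups had been enriched for CD11c, sorted, and cultured in RPMI-1640 with 10% serum, 1 mM sodium pyruvate, 0.1 µg/mL CSF-1 and 0.5 µg/mL CSF-2. The mouse strain, the animals' age and the culture time of the untreated cells are not given in the sources used here. The labels do not tie the samples to separate animals, so p values measure only how far these samples spread, and that spread may be technical.

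Electrons from succinate enter the chain at complex II (succinate dehydrogenase), which also works in the citric acid cycle. Complex III (the cytochrome bc1 complex) passes electrons to cytochrome c, complex IV (cytochrome c oxidase) hands them to oxygen, and complex V (ATP synthase) uses the proton gradient so built to make ATP. Several complex IV subunits exist as a widely expressed form and a form restricted to muscle, lung or testis. In macrophages and dendritic cells the balance of respiration and glycolysis is known to shift with activation.

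The promoters below are shown because detection in these arrays split the complex IV isoforms, with Cox8a and Cox6a1 (widely expressed forms) well above background on all 6 arrays and Cox8b (a heart and skeletal muscle form) on 0. The windows run from 250 bases before to 50 after the start site and were taken from RefSeq, build GRCm38.p6. Capitals mark CCGGAAG (a core bound by ETS factors such as GABPA) and TATAAA (the letters of a TATA box, wherever they lie in the window). In Cox6a1 they also mark the palindrome of 10 letters bound by NRF1, the longer of its capital runs. Each was searched on both strands. Cox8a lies at chr19:7217567-7217866, Cox8b at chr7:140900397-140900696 and Cox6a1 at chr5:115348909-115349208, all on the minus strand.
Cox8a: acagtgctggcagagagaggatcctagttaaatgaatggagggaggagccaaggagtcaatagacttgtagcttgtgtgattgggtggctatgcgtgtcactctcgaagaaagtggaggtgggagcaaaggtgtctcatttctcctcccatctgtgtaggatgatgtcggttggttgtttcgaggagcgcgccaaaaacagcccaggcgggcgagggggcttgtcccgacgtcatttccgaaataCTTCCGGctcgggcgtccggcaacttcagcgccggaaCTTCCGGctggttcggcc
Cox8b: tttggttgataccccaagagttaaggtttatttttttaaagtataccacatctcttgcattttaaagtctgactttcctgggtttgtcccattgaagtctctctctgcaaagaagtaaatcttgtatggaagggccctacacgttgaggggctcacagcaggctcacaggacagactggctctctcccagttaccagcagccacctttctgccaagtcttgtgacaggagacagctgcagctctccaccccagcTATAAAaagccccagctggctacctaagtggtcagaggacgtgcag
Cox6a1: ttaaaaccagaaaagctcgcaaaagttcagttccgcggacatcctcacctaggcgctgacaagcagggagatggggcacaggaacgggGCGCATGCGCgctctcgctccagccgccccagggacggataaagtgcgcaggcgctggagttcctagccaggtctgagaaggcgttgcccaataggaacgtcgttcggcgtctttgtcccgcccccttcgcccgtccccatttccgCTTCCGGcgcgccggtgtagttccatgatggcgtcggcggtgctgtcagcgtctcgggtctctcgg

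Cox8a held the ETS letters at 2 places and Cox6a1 at 1, and Cox6a1 also held the NRF1 palindrome. Cox8b held neither and had the letters TATAAA at 1 place. Their distance from the start site was not scored, so they are not called a TATA box here. Over the 43 promoters that the table lists for 40 of the 52 members, 16 (37.2%) held the ETS letters, against 8.86% of all 32851 promoters. The NRF1 palindrome was in 4 (9.30%) against 0.971%, AAGATGGCG (bound by YY1) in 2 (4.65%) against 1.40%, and TATAAA in 5 (11.6%) against 13.6%. No overlap between these motifs was scored as a joint site. Member promoters also had more CG dinucleotides, with a median of 19 against 7, and a median GC content of 57.0% against 52.7%. The part of base composition in the motif shares was not tested. Among the isoforms, 3 of 5 promoters of detected forms held the ETS letters (Cox8a, Cox6a1 and Cox6b1) and 0 of 4 of undetected forms did. Promoters of the assembly factors Sdhaf1, Sdhaf2 and Sdhaf3, likewise detected on 0 arrays, held them as well. Over all listed members, 13 of 35 promoters of tested genes (37.1%) and 3 of 8 of genes on 0 arrays (37.5%) held them. The isoform contrast was thus not seen over the members as a whole.

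Transcripts of most respiratory genes were detected. A probe counted as detected where its signal was well above background by the scanner software's flag, and a gene was tested where at least 1 probe was detected on at least 3 of the 6 arrays, whatever the group. By this rule 39 of the 52 genes (75%) were tested, against 3276 of the 22911 named genes (14.3%), and 32 of the 39 were detected on all 6 arrays. The tested members comprised 17 of 17 genes of complex V, 8 of 9 of complex III, 10 of 17 of complex IV, 3 of 4 subunits of complex II, and Cycs. Of the other 13 genes, Cyc1 was detected on 2 arrays and 12 on 0. For the 13 probes of these 12 genes, 10 lay below the dimmest detected probe on every array. A probe that is not well above background gives only an upper bound on its transcript.

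**Figure D1:**
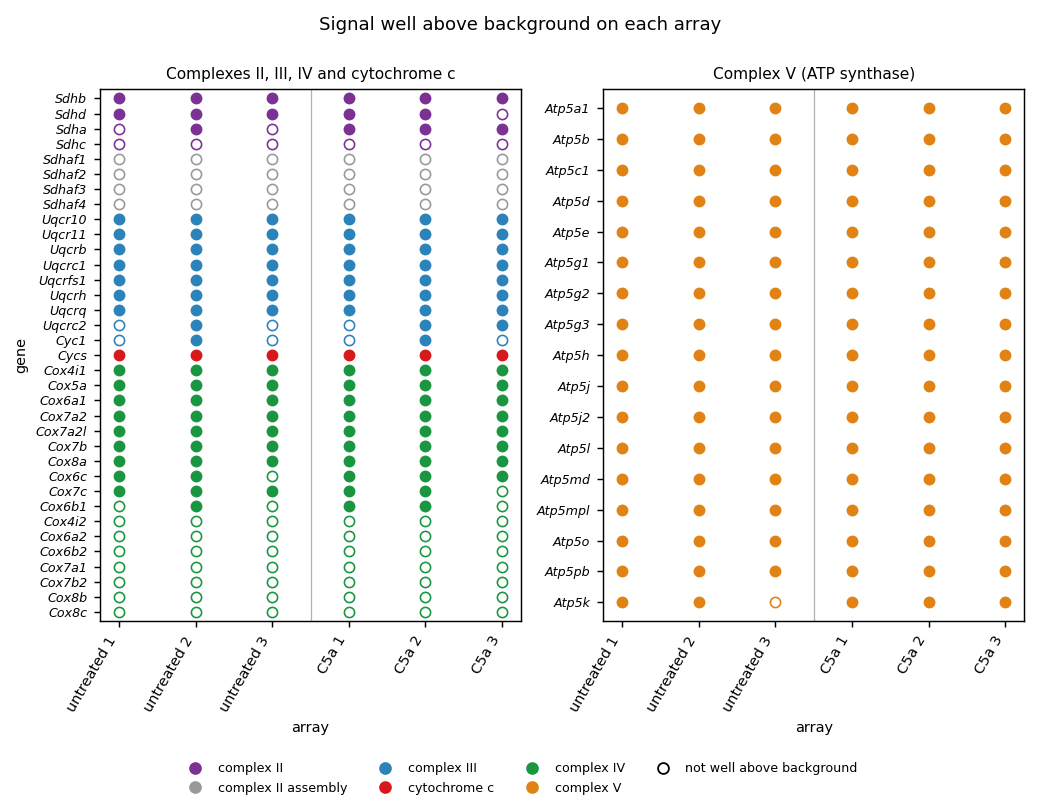
Detection of each of the 52 genes (rows) on the 3 untreated and 3 C5a arrays (columns), by the probe of the gene with the most arrays. Filled circles are signals well above background and open circles are not; colours give the complex. The 7 complex IV genes in the lowest rows and the 4 complex II assembly factors are open on all 6 arrays, and 16 of the 17 complex V genes are filled on all 6.

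Within complex IV, detection followed the isoform. Cox4i1, Cox6a1, Cox7a2, Cox7b and Cox8a were detected on 6 of 6 arrays and Cox6b1 on 3 of 6 (untreated 2, C5a 1 and C5a 2). Their counterparts Cox4i2 (lung and hypoxia form), Cox6a2, Cox7a1 and Cox8b (heart and skeletal muscle forms), and Cox6b2, Cox7b2 and Cox8c (testis forms) were detected on 0 of 6. These 7 were all of the undetected complex IV genes. Among the undetected isoforms Cox7a1 came nearest to detection, at most 0.04 log2 units above the dimmest detected probe of an array, and Cox6a2 stayed furthest away, with a margin of -2.19 at its nearest. The c-ring of ATP synthase, by contrast, is encoded by a family of genes with an identical mature protein, and all of these, Atp5g1, Atp5g2 and Atp5g3, were detected on 6 of 6 arrays. In complex II, Sdhb and Sdhd were detected on 6 and 5 arrays, Sdha on 4 and Sdhc on 0.

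The cells' labelled identity was checked on marker lists. Of 16 mononuclear phagocyte and LysoDC markers, 13 were detected on at least 3 arrays and 11 on all 6, including Lyz1, Lyz2, Itgax (CD11c) and Csf1r. Cd4, Cx3cr1 and Mertk were on 0 arrays, and C5ar1 was on 3 of 6. Of the epithelial, Paneth cell, neutrophil and stromal lists, 0 of 7, 0 of 3, 0 of 4 and 0 of 5 markers were on any array. At least 3 arrays detected 1 of 6 B cell markers (Cd79b), 1 of 6 T cell markers (Il7r), 1 of 4 plasma cell markers (Xbp1), 0 of 6 conventional dendritic cell markers and 3 of 4 plasmacytoid dendritic cell markers (Siglech, Ccr9 and Tcf4). The summed linear signal of the plasmacytoid list, relative to each array's scaling value, ran from 0.549 to 1.16 in untreated and from 0.506 to 0.940 in C5a samples. Arrays differed in brightness. The scaling value of an array (its 75th percentile of processed signal, taken over the 2370 probes that every array detected) was 109 for untreated 3 and 460 for untreated 2, and these arrays detected 34 and 40 of the members.

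No respiratory gene was called between C5a-treated and untreated cells. Levels are log2 processed signals less log2 of the array's scaling value. A difference is the mean of the 3 C5a samples minus that of the 3 untreated ones. In limma with Benjamini-Hochberg adjustment over all 4488 tested genes, 0 of the 39 members had an adjusted p under 0.05, and 0% of all genes did. At an unadjusted p under 0.05 there were 0 members, against 105 genes (2.34%), of which 71 (1.58%) were higher and 34 (0.758%) lower with C5a. With the replicate number as a block there were 190 such genes (4.23%) and again 0 members. The lowest unadjusted p among members was 0.164. Of the 39 differences, 23 were positive and 16 negative, with a median of 0.08, and 54.9% of all tested genes had a positive difference, with a median of 0.04. The 95% interval lay within a 2-fold change in either direction (log2 between -1 and 1) for 24 members (61.5%), against 37.8% of all tested genes. Among genes detected on all 6 arrays it did so for 23 of 32 members (71.9%) against 58.7%. Of all 39 differences, 36 were under 0.5 log2 units in size. Bulk RNA cannot tell fewer cells of a type from less RNA per cell.

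**Figure D2:**
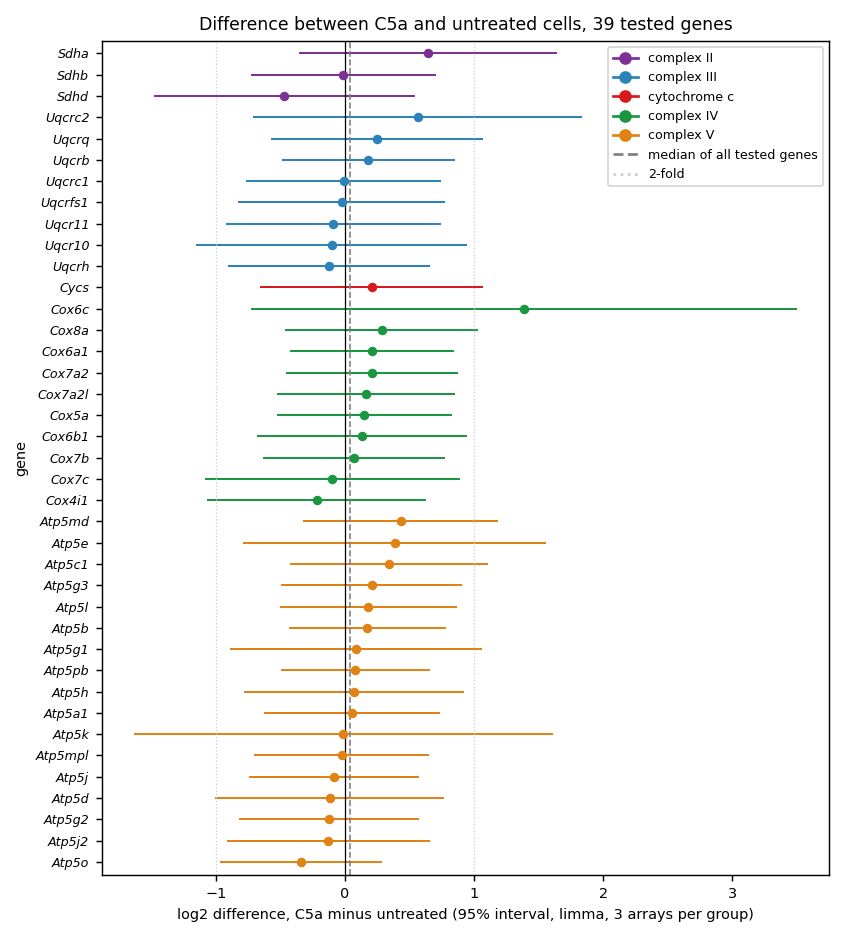
Log2 difference between C5a and untreated cells (horizontal axis) for the 39 tested genes, with 95% intervals from limma and 3 arrays per group. Colours give the complex, the dashed line is the median of all tested genes at 0.04 and the dotted lines mark a 2-fold change. All 39 intervals include 0, and the widest belongs to Cox6c, from -0.72 to 3.50.

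With the scaling percentile taken over all probes, most of which lie in the background, the median difference of all tested genes moved to 0.40 and that of members to 0.44, with 38 of 39 positive. That scaling adds 1 constant per array, which shifts the difference of every gene alike, so signs under it are not compared between genes. Slide positions were read from the names of the scanner outputs. By these, only the first row held both groups. The fit with the slide row therefore sets C5a 1 against the 3 untreated arrays of that row. It gave a median of 0.32 with 36 of 39 positive, against a median of 0.14 for all tested genes. The second row held C5a 2 and C5a 3 alone. Without untreated 3 or without C5a 1 the median of members was -0.01, with 18 of 39 positive in each case.

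Complex II gave differences in both directions. Sdha encodes the flavoprotein that oxidises succinate. Untreated 1, 2 and 3 had levels of -3.76, -3.40 and -4.66, and C5a 1, 2 and 3 had -3.17, -3.82 and -2.90, in the order kept for every gene that follows. The difference was 0.64 (SE 0.42, 95% interval -0.35 to 1.63). The groups overlapped, only 1 untreated array was well above background against 3 with C5a, and without untreated 3 the difference was 0.28. With normexp background correction it was -0.09. Sdhb, the iron-sulphur subunit, was detected on every array. Its levels were -1.67, -2.25 and -2.43 in untreated and -1.94, -2.31 and -2.13 in C5a samples, and the difference was -0.01 (SE 0.30, 95% interval -0.72 to 0.70). Sdhd, a membrane anchor, was even in untreated cells, at -2.45, -2.56 and -2.51, and spread out with C5a, at -2.06, -3.23 and -3.64. Its difference of -0.47 (SE 0.43) was the lowest of all members. It came from C5a 2 and C5a 3, of which C5a 3 was not well above background, while C5a 1 lay above all 3 untreated arrays. Without C5a 1 the difference was -0.93 (SE 0.31, limma unadjusted p = 0.0220, adjusted p = 0.9993). In that fit 143 of the 4488 genes had a limma unadjusted p under 0.05, and Sdhd was the 1 member among them.

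In complex III, 3 of 8 differences were positive and 5 negative, with a median of -0.02. Uqcrc1, a core protein, had levels of -1.80, -1.94 and -2.55 in untreated and -1.86, -2.43 and -2.04 after C5a, which put the difference at -0.01 (SE 0.32). Uqcrfs1, the Rieske iron-sulphur protein, was at -3.05, -2.41 and -3.04 in untreated and -2.43, -2.88 and -3.27 after C5a, which put the difference at -0.03 (SE 0.34). For both, the 2 groups covered nearly the same range. Uqcrc2, the other core protein, had the highest difference of the complex at 0.56 (SE 0.54), from -3.99, -2.72 and -4.40 in untreated and -3.94, -2.80 and -2.68 in C5a samples. Its signal passed detection on 1 untreated array and 2 of the C5a arrays, and with the slide row in the fit the difference was -0.24. Uqcrh, the hinge protein, had the lowest at -0.12 (SE 0.33), from 0.07, -0.79 and -0.36 in untreated and -0.33, -0.27 and -0.84 in C5a samples. The small subunits Uqcrq, Uqcrb, Uqcr11 and Uqcr10 lay between these, at 0.25 (SE 0.35), 0.18 (SE 0.28), -0.09 (SE 0.35) and -0.10 (SE 0.44). Cyc1, the cytochrome c1 subunit, was detected on untreated 2 and C5a 2 alone, the brightest arrays, and was not tested.

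Cycs encodes cytochrome c, the mobile carrier between complexes III and IV. It was at -1.13, -0.89 and -1.61 in untreated and -0.41, -1.24 and -1.36 after C5a, which put the difference at 0.21 (SE 0.36, 95% interval -0.65 to 1.06). C5a 1 was above the other 5 arrays, and the remaining C5a values lay within the untreated range.

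In complex IV, 8 of 10 differences were positive, with a median of 0.16. The largest difference of all 39 members was that of Cox6c, a small subunit, at 1.39 (SE 0.89, limma unadjusted p = 0.164, adjusted p = 0.9992). It rested on untreated 3, at -4.76 and not well above background there, where untreated 1 and 2 were at -1.26 and -1.60 and C5a 1 to 3 at -0.57, -1.48 and -1.41. Without untreated 3 the difference was 0.28 (SE 0.39), and with normexp background correction it was 0.25. Cox4i1, a subunit that regulates the enzyme's response to ATP, had the lowest difference of the complex at -0.22 (SE 0.36). Its levels were 0.54, 0.32 and -0.07 in untreated and 0.44, 0.26 and -0.57 in C5a samples, so that number 3 was lowest in both groups. Cox5a was at 0.48, 0.49 and -0.08 in untreated and 0.62, 0.47 and 0.27 after C5a, which put the difference at 0.15 (SE 0.28). Cox7a2l, a factor that joins complexes III and IV into supercomplexes, was at -0.94, -0.49 and -1.004 in untreated and -0.35, -0.88 and -0.72 after C5a, which put the difference at 0.16 (SE 0.29). In all of these the groups overlapped. The small subunits Cox8a, Cox6a1 and Cox7a2 differed by 0.28 (SE 0.31), 0.21 (SE 0.27) and 0.21 (SE 0.28), and Cox6b1, Cox7b and Cox7c by 0.13 (SE 0.34), 0.07 (SE 0.30) and -0.10 (SE 0.42).

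**Figure D3:**
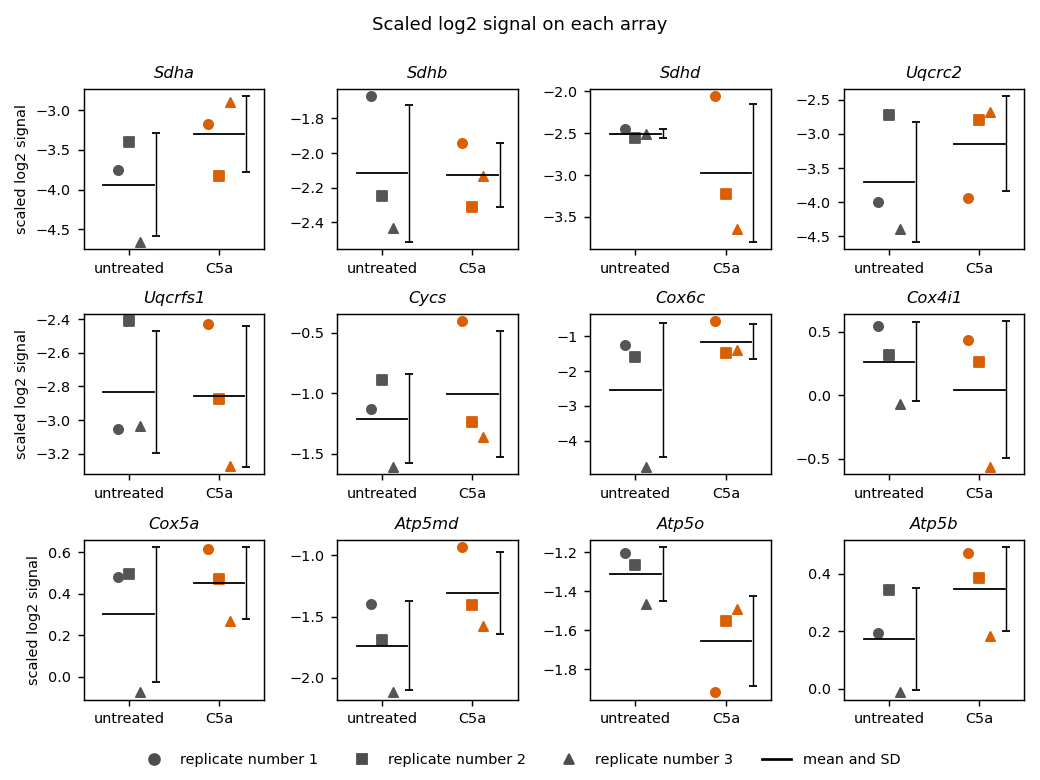
Scaled log2 signal (vertical axes, which differ between panels and do not start at 0) of 12 genes on each array, with untreated samples in grey and C5a samples in orange. Marker shapes give the replicate number, horizontal lines the means and bars the SD of 3 arrays. Cox6c has 1 low untreated array at -4.76, and only Atp5o has groups that do not overlap.

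Complex V was the most completely measured, with 10 of 17 differences positive and a median of 0.07. All 17 differences were under 0.5 log2 units in size, and 12 of the 17 intervals lay within a 2-fold change. Atp5b, the beta subunit that makes ATP, was at 0.19, 0.34 and -0.01 in untreated and 0.47, 0.38 and 0.19 after C5a, which put the difference at 0.17 (SE 0.26, 95% interval -0.43 to 0.77). Atp5a1, the alpha subunit, was at -0.66, -0.06 and -0.63 in untreated and -0.29, -0.33 and -0.57 after C5a, which put the difference at 0.06 (SE 0.29). Atp5c1, Atp5d and Atp5e, which form the central stalk, differed by 0.34 (SE 0.32), -0.12 (SE 0.37) and 0.39 (SE 0.50). Untreated and C5a values overlapped for all of these head and stalk genes.

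Atp5o, which encodes OSCP, the link between the head and the peripheral stalk, was the 1 member whose groups did not overlap. It was at -1.20, -1.26 and -1.47 in untreated and -1.92, -1.55 and -1.49 after C5a, which put the difference at -0.34 (SE 0.26, 95% interval -0.96 to 0.28, limma unadjusted p = 0.232, adjusted p = 0.9992). The gap between the groups was narrow, from -1.47 in untreated 3 to -1.49 in C5a 3. Of all tested genes, 255 (5.68%) had groups that did not overlap, 151 (3.36%) with C5a higher and 104 (2.32%) with C5a lower, so that 0 of 39 members higher and 1 of 39 lower is near this background. With the percentile over all probes, which shifts every gene alike and puts the median of all tested genes at 0.40, the difference was 0.02. Its second probe was detected on 1 array and differed by -0.02. The other peripheral stalk genes Atp5pb, Atp5h and Atp5j differed by 0.08 (SE 0.24), 0.07 (SE 0.36) and -0.08 (SE 0.28).

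Among membrane-sector genes, Atp5md, a small subunit also known as Usmg5, had the highest difference of the complex at 0.43 (SE 0.32, limma unadjusted p = 0.215, adjusted p = 0.9992). It was at -1.40, -1.69 and -2.12 in untreated and -0.93, -1.41 and -1.58 in C5a samples, and each C5a value was above the untreated value of the same number although the groups overlapped. Its second probe differed by 0.36. The c-ring genes Atp5g1, Atp5g2 and Atp5g3 differed by 0.08 (SE 0.41), -0.12 (SE 0.29) and 0.21 (SE 0.29). Atp5l, Atp5mpl, Atp5j2 and Atp5k, further small subunits of the membrane sector, differed by 0.18 (SE 0.29), -0.03 (SE 0.28), -0.13 (SE 0.33) and -0.01 (SE 0.69). Of the complex V genes Atp5k spread most, from -3.55 to -0.98 in untreated and from -2.77 to -1.38 in C5a samples. Its lowest value was that of untreated 3, where it was not well above background. Atp5k, Atp5l, Atp5c1, Atp5pb, Uqcrh, Cox6c and Cox7c have pseudogenes in the RefSeq table, none with a probe named here, and binding of pseudogene transcripts to the probes of these genes was not tested.

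Probes of 1 gene did not always point the same way. Of 7 members with more than 1 tested probe, 4 had probes with differences of opposite sign. In Atp5h the probe used differed by 0.07 and the others by -0.40 and 1.01. The last of these was at -4.18, -2.76 and -3.74 in untreated and -5.31, -1.26 and -1.09 in C5a samples, so that C5a 2 and C5a 3 were high and C5a 1 was the lowest of all. The probes of Atp5g1 differed by 0.08 and -0.09, those of Atp5pb by 0.08 and -0.20, and those of Uqcrb by 0.18 and -0.01. Both tested probes of Atp5b (0.17 and 0.14) and of Uqcr10 (-0.10 and -0.07) had the same sign.

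Single arrays stood apart over many members at once. Measured from each gene's own mean over the 6 arrays, the median deviation of the 39 members was 0.15, 0.05 and -0.31 on the untreated arrays 1, 2 and 3 and 0.33, 0.03 and -0.15 on the C5a arrays 1, 2 and 3. Over all 4488 tested genes the same medians ran from -0.04 to 0.12, where the scaling of the arrays itself tends to hold them near 0. C5a 1 was the highest of the 6 arrays for 22 members (56.4%), against 22.7% of all tested genes, and untreated 3 the lowest for 19 members (48.7%), against 23.5%. Among genes detected on all 6 arrays these counts were 19 of 32 members (59.4%) against 437 of 2178 genes (20.1%), and 15 of 32 (46.9%) against 392 of 2178. Untreated 3 was also the dimmest array, while the brightest, untreated 2 and C5a 2 with scaling values of 460 and 377, had median deviations near 0, and C5a 1 had a scaling value of 254. The part of array brightness in this pattern was not tested.

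**Figure D4:**
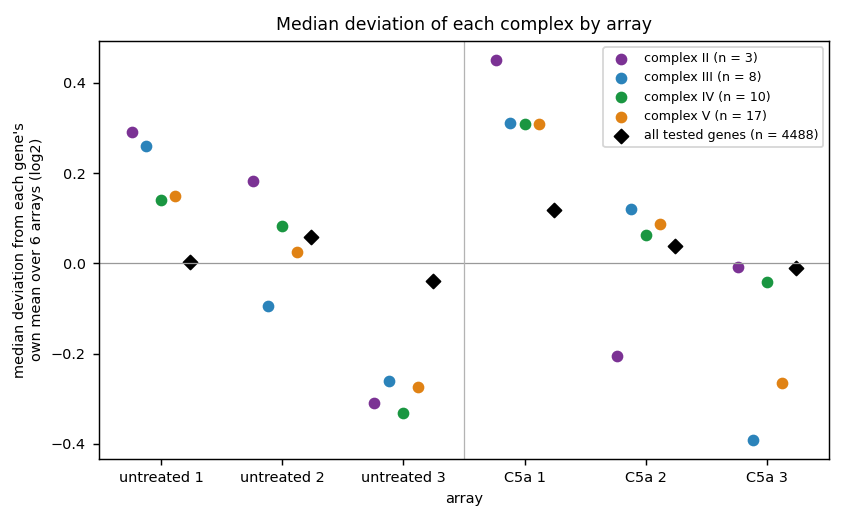
Median deviation of the tested genes of complexes II, III, IV and V (coloured circles) and of all tested genes (black diamonds) from each gene's own mean, in log2 units, on each of the 6 arrays. Untreated 3 lies at -0.26 or below for every complex and C5a 1 at 0.31 or above. All tested genes stay between -0.04 and 0.12, where the scaling of the arrays tends to hold them near 0.

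The order of the replicate numbers was also shared by many members. For 21 members (53.8%) number 1 was the highest array of both groups, against 17.9% of all tested genes, and for 18 members (46.2%) number 3 was the lowest of both, against 25.7%. Atp5e, the epsilon subunit, showed it plainly, at 0.40, -0.15 and -1.07 in untreated and 0.77, 0.16 and -0.59 in C5a samples. Between samples of the same number it differed by 0.37, 0.32 and 0.47, although the ranges of the groups overlapped widely. All same-number differences were positive for 8 members (20.5%), against 14.4% of all tested genes. These were Cox6c, Cox8a, Cox6a1, Cox7a2, Atp5md, Atp5e, Atp5c1 and Atp5b. All were negative for 4 (10.3%), against 10.8%, and these were Cox4i1, Atp5j, Atp5j2 and Atp5o.

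Genes around the chain gave no call either. Of 38 complex I genes 29 were tested, of which limma with Benjamini-Hochberg adjustment called 0, with 0 at an unadjusted p under 0.05, 17 positive differences and a median of 0.12. Ndufc1 had their smallest p at a difference of 0.69 (SE 0.46). Of 34 assembly factors 13 were tested, with 9 positive differences and Chchd10, a protein of the mitochondrial intermembrane space, at 0.71 (SE 0.41). Of 17 citric acid cycle and pyruvate dehydrogenase genes 8 were tested, with 3 positive differences and Ogdh, a subunit of 2-oxoglutarate dehydrogenase, at -0.23 (SE 0.24), with groups that did not overlap. Carriers and coupling genes were detected more often, 9 of 10, with 7 positive differences and Etfb, which passes electrons from fatty acid oxidation, at 0.68 (SE 0.35). Of 14 regulators only 3 were tested, with 2 positive differences and Yy1, a transcription factor, at 1.04 (SE 0.46, limma unadjusted p = 0.0577), detected on 1 untreated and 2 C5a arrays. With the replicate number as a block its unadjusted p in limma was 0.0216 (adjusted p = 0.926), the 1 regulator under 0.05 there. Hif1a, the hypoxia factor, was the 1 regulator whose groups did not overlap, at 0.49 (SE 0.31), named after its values were seen. Over all tested genes, groups did not overlap for 3.36% with C5a higher and for 2.32% with C5a lower. With the block, 4.23% of all tested genes had a limma unadjusted p under 0.05. For these assembly, cycle, carrier and regulator lists too, limma with Benjamini-Hochberg adjustment called 0 genes, with 0 at an unadjusted p under 0.05 without the block. Genes of the mitochondrial genome had no probe named by the RefSeq accessions used and were not analysed here.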

How the data were processed

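The authors deposited 6 scanner files, which give the intensity of each spot (the background-subtracted processed signal, and the median brightness of spot and local background) and flags of 0 or 1, made with Agilent Feature Extraction 10.10.1.1, per the file headers. They also deposited a table of log2 values, used as an alternative. Its per-array centring matched log2 processed signal less the 75th percentile over all probes, within 0.01 for 100% of values, while the baseline subtracted per probe is unknown. The medians of its untreated columns were 0.17, -0.08 and 0.18, and those of its C5a columns 0.01, -0.02 and 0.22.

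Spots with an outlier flag were left out, spots of 1 probe averaged, and probes named through RefSeq accessions of assembly GRCm38.p6, without versions (32994 of 56605 matched). Few of the probes were detected (2370 on all 6 arrays, 48672 on 0), so arrays were scaled by the 75th percentile over probes detected on all 6. Precision is limited by the number of arrays. Each gene was represented by its tested probe with the highest mean. Groups were compared with limma 3.58.1 in R 4.3.3 (lmFit and eBayes, Benjamini-Hochberg over 4488 genes, threshold 0.05). On simulated data with the measured spread over 4488 genes, this comparison recovered 0, 124 and 185 of 200 genes changed by 1, 2 and 4 log2 units.

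Deviations of same-numbered samples from their group means correlated at 0.21, 0.27 and 0.38 over 4488 genes (0.30, -0.24 and 0.01 over the 39 members). A rule asked for over 0.1 in every pair over all tested genes. As this was met, the numbers were used for the same-number differences and as the block of an alternative fit. The main comparison was unpaired. The labels state no pairing, and the members alone did not meet the rule. In both groups number 2 was the brightest array and number 3 the dimmest, and the part of array brightness in these correlations was not tested.

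The members, gene lists and tests were chosen with earlier results of these data known. Every tested member is named. Values in every sample are given for members whose groups do not overlap, the highest and lowest difference of each complex, and the subunits Sdha, Sdhb, Uqcrc1, Uqcrfs1, Cycs, Cox4i1, Cox5a, Cox7a2l, Atp5a1 and Atp5b. Atp5e and the ranges of Atp5k were added after their values were seen. Members with more than 1 tested probe have the difference of each probe given. Of the other lists, the gene with the smallest unadjusted p is named.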

Additional observations from a re-analysis of the deposited data

How the results depend on the processing

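The 15 alternatives changed the scaling, background correction, filter, probe choice, source table, slide row, replicate block or set of samples, and limma with Benjamini-Hochberg adjustment called 0 members in all of them. Over all genes the count moved from 0 to 47 (9 of them higher) without the filter on dim probes, which tested 46522 genes, and was 0 under the other alternatives. The median difference of members moved from 0.08 to 0.44 with the percentile over all probes and to 0.44 with the deposited table, which is scaled that way; the median of all tested genes there was 0.40 in both. Leaving out 1 sample gave medians of -0.01 to 0.20 and 0 calls each time, for members and for all genes. With normexp, run on median spot brightness and chosen after seeing the data, the median of members was -0.09 and that of all tested genes -0.12. The replicate block changed no call of any member, with 0 of 39 called and a lowest adjusted p of 0.926, and the members' median SE fell from 0.32 to 0.24. When some 1 sample was left out, 23 of the 39 members changed sign. Dim signal limits Sdha, Uqcrc2 and Cox6b1, each well above background on 1 untreated array. It also limits Cox6c and Atp5k, with 2 such untreated arrays each, and Sdhd and Cox7c, with 2 such C5a arrays each.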
